A study of Mus musculus with 53 samples.

Results

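H3K4me1 peaks of SOX2 and GATA6 double-positive (DP) cells were set against those of SOX2+ cells sorted from KOSR culture, where KOSR is a medium with knockout serum replacement. The comparison rests on 3 libraries of the 53 in the series, of which 35 have a peak list. There was 1 from DP cells (DP A) and 2 from SOX2+ cells (SOX2+ A and SOX2+ B), where A and B are the letters in the sample titles. They were chosen by antibody, culture and sorted population. The cells are mouse embryonic stem cells of the E14JU line carrying SGGC, a double reporter in which endogenous SOX2 is fused to GFP and endogenous GATA6 to mCherry. All KOSR libraries are labelled as clone B12, so they represent 1 clone with its reporter alleles and the retained resistance cassettes, and the DP population had no second library with clear labels. A further KOSR H3K4me1 list is titled B_DP while its source name says SOX2+; it was kept apart and its peaks are described on their own. The other libraries used below come from clones B9 and B12 of the same reporter line in 2iLIF and NACL, 2 media for naive pluripotency, and in nEnd, a culture of naive endoderm that stands for primitive endoderm (PrE). Peaks were mapped by CUT&RUN, in which an antibody directs a nuclease to cut DNA at a chromatin mark or factor.

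H3K4me1 is a histone modification deposited at enhancers, both active ones and ones that are primed but not yet in use, and it also flanks active start sites. In the blastocyst the inner cell mass gives rise to epiblast, which depends on SOX2, and to PrE, which depends on GATA6, and cells of the early inner cell mass hold both factors. The comparison asks which candidate enhancers carry the mark in cells with both factors and not in SOX2+ cells.

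The lists differed in length, with 130749 peaks in DP A, 58085 in SOX2+ A and 78354 in SOX2+ B, so each was held to its strongest 58085 peaks by highest signal. The weakest DP A peak kept had a signal of 10, and 9867 of the 9893 DP A peaks at that value were kept. The kept peaks covered 125612830, 123431342 and 114720380 bases. Merging peaks that overlapped by at least 1 base gave 78146 regions, of which 13344 (17.1%) held a peak of DP A alone (DP-only) and 9753 (12.5%) held peaks of both SOX2+ libraries and none of DP A (SOX2+-only). DP A and at least 1 SOX2+ library shared 40681 regions (52.1%), and 32317 (41.4%) had a peak in all 3 libraries, 4551 (5.82%) in DP A and SOX2+ A, and 3813 (4.88%) in DP A and SOX2+ B. For scale, 7716 regions (9.87%) held a peak of SOX2+ A alone and 6652 (8.51%) of SOX2+ B alone. DP A therefore had more regions of its own than either SOX2+ library, at 24.7% of the regions it marked against 14.2% and 12.7%. With 1 DP library no test of this difference was possible, and population and library cannot be told apart. With all deposited peaks, where DP A has the longest list, 53810 regions were DP-only and 2147 SOX2+-only, and with lists held to equal covered bases 10314 and 11849, so which class was larger depended on how the lists were made equal.

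**Figure D1:**
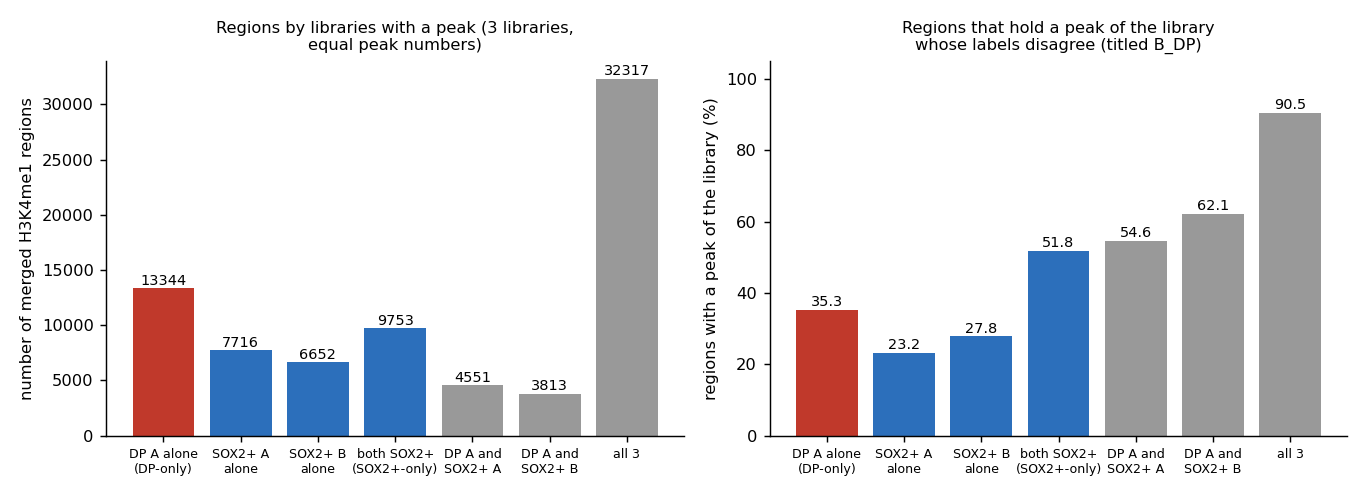
Left, number of merged H3K4me1 regions in each of the 7 combinations of DP A, SOX2+ A and SOX2+ B; right, percent of the regions of each combination that held one of the 58085 strongest peaks of the library titled B_DP. DP A alone accounts for 13344 regions, against 7716 and 6652 for each SOX2+ library alone, and the library titled B_DP has a peak in 35.3%, 23.2% and 27.8% of these.

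By shared bases over the union of bases, the 2 SOX2+ libraries were closest to each other at 57.8%, and DP A shared 48.0% with SOX2+ A and 48.7% with SOX2+ B. Thus DP A stood further from both SOX2+ libraries than they did from each other, also from the one with its own letter. Of the DP-only regions, 10795 had no peak anywhere in the SOX2+ lists. Of the SOX2+-only regions, 1491 had no peak in the longer DP A list, and the other 8262 (84.7%) held a weaker DP A peak below the 58085 kept. The SOX2+-only regions were thus mostly places of lower rank in DP cells. For DP-only regions SOX2+ A offers no weaker peaks, and the SOX2+ B list held a weaker peak in 2549 (19.1%). In regions of SOX2+ A alone, SOX2+ B held a weaker peak in 3208 (41.6%).

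DP-only regions were narrower (median 1102 bases) than SOX2+-only (1725) and fully shared regions (2855), and 15.8% lay within 1 kb of an annotated start site, against 19.3% and 25.3%. Regions of SOX2+ A alone and of SOX2+ B alone, which also need a peak in only 1 library, had median widths of 1313 and 918 bases. Of these, 24.5% and 18.7% lay within 1 kb. The highest signal of DP-only regions lay in introns in 43.1% and between genes in 50.6% of cases, against 46.9% and 45.6% over all regions. They were spread over the genome, making up 15.7% to 18.4% of the regions of every chromosome except Y, which had 15 regions. Ranked among the kept peaks of DP A, with 100 the strongest, their median percentile was 28.5, against 64.5 for regions shared by all 3 libraries. Within their own lists, regions of SOX2+ A alone and SOX2+ B alone had median percentiles of 18.1 and 20.7.

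The strongest DP-only regions are shown first because the GATA string they share is counted over all regions below. The windows are 300 bases of GRCm38 (RefSeq GRCm38.p6, plus strand) centred on the highest H3K4me1 signal. The capitals mark every exact match on either strand to AGATAA, a form of the GATA factor site that reads TTATCT on the other strand, to CATTGT, the core bound by SOX factors, and to ATGCAAAT, the octamer bound by OCT4 and other POU factors. The first 4 are the strongest DP-only regions by the signal of DP A. The last 2 are the strongest DP-only regions with Pdgfra, a receptor and PrE marker, and Fgfr2, a receptor for FGF signals in PrE, as nearest gene. They were picked among regions with GATA6 peaks in every DP library, and are also the strongest of these genes without that condition.

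Near Gm9887, chr12:69382980-69383279: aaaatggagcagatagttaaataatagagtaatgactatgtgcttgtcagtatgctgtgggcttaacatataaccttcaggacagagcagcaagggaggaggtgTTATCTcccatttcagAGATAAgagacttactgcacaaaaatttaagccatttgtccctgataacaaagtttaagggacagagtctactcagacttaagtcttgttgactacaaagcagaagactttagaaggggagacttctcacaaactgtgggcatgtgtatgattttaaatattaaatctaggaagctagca
Atxn7l1 intron, chr12:33153200-33153499: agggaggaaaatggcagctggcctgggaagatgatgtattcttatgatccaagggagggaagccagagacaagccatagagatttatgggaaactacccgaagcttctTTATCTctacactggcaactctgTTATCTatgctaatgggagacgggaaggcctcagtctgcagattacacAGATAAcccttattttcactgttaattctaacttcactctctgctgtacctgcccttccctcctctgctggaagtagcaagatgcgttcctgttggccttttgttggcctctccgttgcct
Near Gm47985, chr1:151144581-151144880: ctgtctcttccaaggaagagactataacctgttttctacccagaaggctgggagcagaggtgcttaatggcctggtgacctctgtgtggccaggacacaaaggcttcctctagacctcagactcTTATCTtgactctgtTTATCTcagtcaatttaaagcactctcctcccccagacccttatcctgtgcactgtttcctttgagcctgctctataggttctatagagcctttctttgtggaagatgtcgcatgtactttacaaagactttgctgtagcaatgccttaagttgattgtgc
Smarca2 intron, chr19:26613686-26613985: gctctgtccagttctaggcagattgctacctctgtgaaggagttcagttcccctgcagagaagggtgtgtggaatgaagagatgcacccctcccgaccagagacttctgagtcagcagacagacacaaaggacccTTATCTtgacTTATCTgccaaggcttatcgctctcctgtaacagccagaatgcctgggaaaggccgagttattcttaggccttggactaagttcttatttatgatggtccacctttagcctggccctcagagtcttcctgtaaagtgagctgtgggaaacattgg
Near Pdgfra, chr5:75143629-75143928: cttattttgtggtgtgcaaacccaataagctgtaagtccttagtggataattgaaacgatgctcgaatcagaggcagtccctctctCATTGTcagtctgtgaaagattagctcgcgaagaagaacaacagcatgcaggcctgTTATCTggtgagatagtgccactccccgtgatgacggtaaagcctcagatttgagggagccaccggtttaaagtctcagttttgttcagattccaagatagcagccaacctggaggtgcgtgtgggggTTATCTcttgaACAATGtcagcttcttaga
Near Fgfr2, chr7:130149019-130149318: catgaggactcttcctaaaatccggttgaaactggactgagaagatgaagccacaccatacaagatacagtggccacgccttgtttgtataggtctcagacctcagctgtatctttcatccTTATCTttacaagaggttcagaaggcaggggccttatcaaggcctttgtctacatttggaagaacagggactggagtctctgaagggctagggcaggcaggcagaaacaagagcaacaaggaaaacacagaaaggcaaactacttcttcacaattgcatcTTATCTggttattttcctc

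Each of these windows held 2 or 3 AGATAA strings. In the first 4 all of them began within 46 bases of the maximum, and none held CATTGT or ATGCAAAT. The window near Pdgfra also held CATTGT 2 times. All 6 regions had H3K4me1 peaks in both nEnd libraries. The first 4 also had GATA6 peaks in 3 of 3 DP libraries, which was a condition for choosing the last 2. The 2 strongest SOX2+-only regions are shown for contrast, with a SOX2+-only region nearest to Lef1, a factor of the Wnt pathway. The region near Lef1 is the strongest of that gene among those with SOX2 peaks in 3 of 3 SOX2+ libraries.

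Kcnt2 intron, chr1:140434918-140435217: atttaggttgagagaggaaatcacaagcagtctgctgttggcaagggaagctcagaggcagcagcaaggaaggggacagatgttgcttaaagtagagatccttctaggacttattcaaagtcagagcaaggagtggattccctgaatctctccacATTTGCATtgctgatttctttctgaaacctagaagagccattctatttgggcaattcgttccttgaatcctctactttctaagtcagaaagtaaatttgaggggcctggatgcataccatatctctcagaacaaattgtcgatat
Tmtc1 intron, chr6:148338495-148338794: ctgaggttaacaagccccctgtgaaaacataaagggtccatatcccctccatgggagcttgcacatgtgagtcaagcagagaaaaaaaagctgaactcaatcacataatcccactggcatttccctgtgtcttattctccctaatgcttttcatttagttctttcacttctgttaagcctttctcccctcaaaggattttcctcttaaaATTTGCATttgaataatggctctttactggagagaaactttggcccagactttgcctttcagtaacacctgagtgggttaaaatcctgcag
Near Lef1, chr3:131101826-131102125: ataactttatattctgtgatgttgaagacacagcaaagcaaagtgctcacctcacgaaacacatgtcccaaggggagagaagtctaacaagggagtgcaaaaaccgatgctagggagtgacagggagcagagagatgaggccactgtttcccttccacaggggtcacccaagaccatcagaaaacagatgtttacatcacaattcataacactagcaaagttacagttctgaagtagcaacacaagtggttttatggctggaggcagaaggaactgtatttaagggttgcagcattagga

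The first 2 windows held 1 ATGCAAAT each, and the window near Lef1 none of the 3 strings; AGATAA was in none of them. The first 2 regions had H3K4me1 peaks in all 4 naive libraries of 2iLIF and NACL, none in nEnd and no GATA6 peak in DP cells, and both held a weaker DP A peak below those kept. The next SOX2+-only regions by strength had 4921524L21Rik, Cox7c and Rnf152 as nearest genes, the last pair at 960119 and 259681 bases from their start sites. The next DP-only region, nearest to Apcdd1, a Wnt inhibitor, had a GATA6 peak in 1 of 3 DP libraries and a weaker peak in SOX2+ B.

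Across all regions the GATA string followed the same division. AGATAA lay in the 300-base window of 3738 DP-only regions (28.0%) and 1293 SOX2+-only regions (13.3%), against 18.1% of all 78146 regions. The regions of a single SOX2+ library held it in 13.1% (SOX2+ A) and 13.6% (SOX2+ B), so the DP-only share lay above both. At least 2 AGATAA strings lay in 6.24% of DP-only and 1.02% of SOX2+-only windows. The median GC content of the windows was close, at 48.3% and 46.3%. Away from start sites, beyond 1 kb, the shares were 29.9% and 13.1%. CATTGT was found in 15.1% of DP-only, 17.6% of SOX2+-only and 16.02% of all regions, and ATGCAAAT in 2.56%, 3.72% and 3.23%. These are counts of letters in the reference, described without a test, and a match is not evidence of binding.

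**Figure D2:**
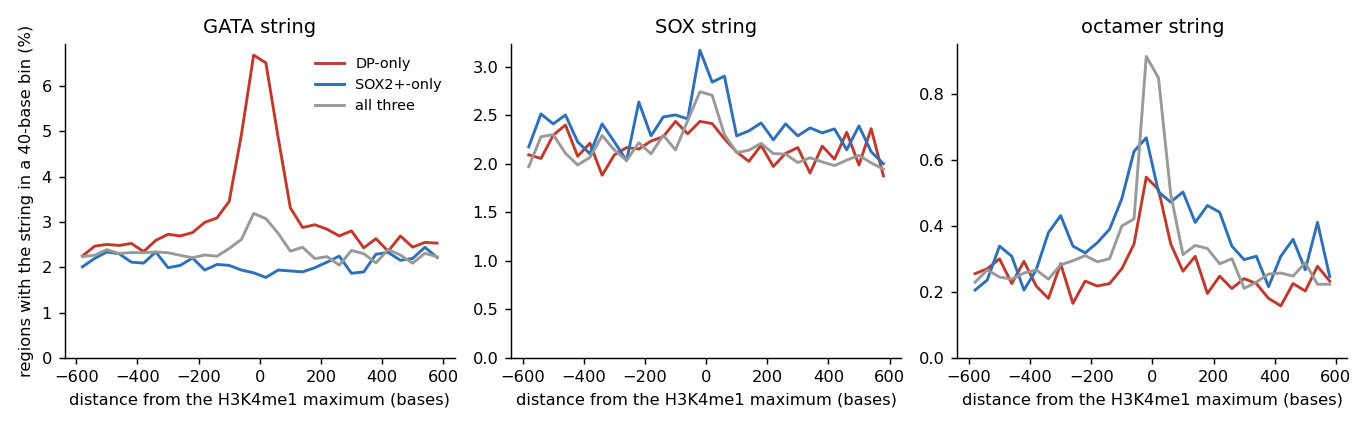
Percent of regions that hold each string in a 40-base bin, against distance from the highest H3K4me1 signal in bases, for DP-only, SOX2+-only and fully shared regions. The GATA string rises to 6.68% at the maximum of DP-only regions and lies at 1.88% there in SOX2+-only regions; the vertical scales of the panels differ.

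The string was concentrated at the maximum of DP-only regions. In the 40 bases before the maximum it was present in 6.68% of DP-only regions, against 2.25% in the bin from 600 to 560 bases before it, and in SOX2+-only regions the same bins gave 1.88% and 2.01%. Fully shared regions had a smaller rise, with 3.19% and 2.23%. Within the DP-only class the share rose with signal, from 21.99% in the weakest quintile to 41.4% in the strongest, and in fully shared regions from 14.4% to 23.2%, whereas the SOX2+-only class went from 13.6% to 12.9%. It also went with GATA6 binding, at 22.9% of DP-only regions without a GATA6 peak in DP cells and 78.6% of the 308 with a peak in all 3 DP libraries. Among the 9959 DP-only regions with no GATA6 peak in any DP or nEnd library the share was 19.98%, against 12.7% of 9220 such SOX2+-only regions.

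GATA6 peaks were more frequent in DP-only regions than in any other class. A GATA6 peak in at least 2 of the 3 DP libraries lay in 844 DP-only regions (6.32%), 15 SOX2+-only regions (0.154%) and 11 and 10 regions of a single SOX2+ library (0.143% and 0.150%). Regions shared by all 3 libraries had such peaks in 4.24% and all regions together in 3.16%. By number the fully shared class held more of them, 1370 of 2469. The DP-only share varied with the processing, in a range given below, and fully shared regions were not counted under those alternatives. Most DP-only regions, 11730 of them, had no GATA6 peak in any DP library. In the strongest quintile of DP-only regions 16.7% had GATA6 peaks in at least 2 DP libraries, against 2.06% in the weakest quintile. GATA6 and SOX2 peaks, each in at least 2 DP libraries, met in 187 DP-only regions (1.40%) and in 2 SOX2+-only regions. The fully shared class had more of these, 656 regions (2.03%), and all regions together 1.15%. SOX2 peaks of at least 2 of the 3 SOX2+ libraries went the other way, in 3.10% of DP-only and 12.0% of SOX2+-only regions, with 21.8% of fully shared regions. Regions of SOX2+ A alone and SOX2+ B alone, each from a single list like the DP-only regions, held them in 5.29% and 4.69%.

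**Figure D3:**
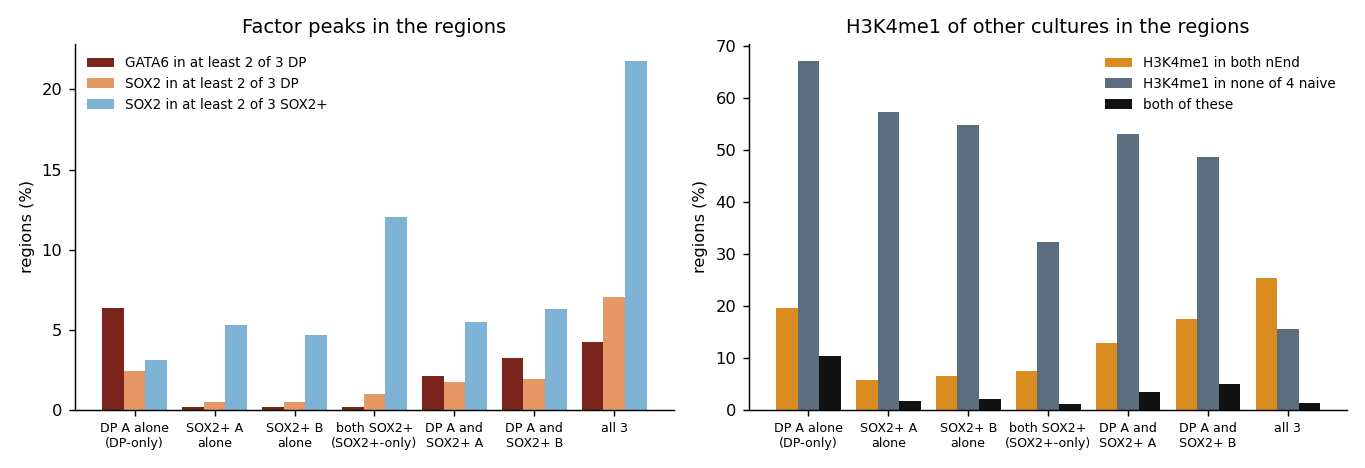
Percent of regions in each of the 7 combinations with GATA6 or SOX2 peaks in at least 2 of 3 libraries (left) and with H3K4me1 in both nEnd libraries, in none of the 4 naive libraries, or both (right). DP-only regions have the highest share with GATA6 (6.32%) and the highest share with H3K4me1 in nEnd but not in naive cells (10.4%).

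Libraries that had no part in making the regions were then compared by the share of their peaks at DP-only regions among their peaks at DP-only and SOX2+-only regions together. Of the 23097 regions of these 2 classes 57.8% were DP-only. The share is within 1 library, so peaks of that library in other classes do not enter it. It can still move with the length of the list, and differences at equal peak numbers are given below for GATA6 and H3K27ac. Each comparison was an exact permutation test over libraries, two-sided, and p-values were adjusted over the 5 tests by the Benjamini-Hochberg method. The labels give the 2iLIF, NACL and nEnd libraries as clones B9 and B12, apart from nEnd H3K4me1, which is from B9 alone. Nothing in them says that the KOSR libraries or the nEnd H3K4me1 libraries of a group are separate cultures, so for these the spread between libraries may be technical.

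SOX2 peaks of the DP libraries lay at DP-only regions in 76.7% (A), 73.3% (A1) and 44.7% (B) of cases, and those of the SOX2+ libraries in 25.9% (A), 30.1% (A1) and 24.5% (B). The groups did not overlap. DP B stood lowest among the DP libraries, below the 57.8% of regions, and rested on 103 peaks, with a Wilson 95% interval of 35.4% to 54.3%, which covers counting error only. The means were 64.9% ± 17.6 (SD, n = 3) and 26.8% ± 2.89 (SD, n = 3), a difference of 38.1 percentage points (exact permutation p = 0.1, the smallest that 3 against 3 allows, adjusted p = 0.167). Without DP B the difference was 48.2 points. With 2iLIF (28.0% and 26.9%) and NACL (27.4% and 23.8%) added to the SOX2+ group, all 7 pluripotent libraries lay between 23.8% and 30.1%, below all 3 DP libraries. The difference was 38.2 points (exact permutation p = 0.0167, the smallest that 3 against 7 allows, adjusted p = 0.0833), past the 0.05 threshold before adjustment and not after it.

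GATA6 peaks lay at DP-only regions in 95.7%, 97.7% and 98.5% of cases in the DP libraries A, A1 and B, and in 87.6% and 87.4% in the nEnd libraries B9 and B12. The difference of 9.82 points was larger than the spread within either group (SD 1.47 and 0.0935), and the exact permutation p was 0.2, the smallest that 3 against 2 allows (adjusted p = 0.2). Held to equal peak numbers, the difference was 3.55 points, and with regions from all deposited peaks 0.429 points. The nEnd lists reached further in number, with 2372 and 3178 peaks at DP-only regions, against 1641, 902 and 337 in DP cells.

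Of the nEnd H3K4me1 peaks at these 2 classes, 65.3% and 77.5% lay at DP-only regions in its libraries, which are both of clone B9. Of all nEnd peaks, 10.1% and 13.99% lay at DP-only regions and 34.9% and 43.2% at fully shared ones. The naive libraries gave 31.4% and 39.2% in 2iLIF and 28.0% and 19.7% in NACL, all below both nEnd libraries. The difference was 41.8 points (exact permutation p = 0.133, the smallest that 2 against 4 allows, adjusted p = 0.167). With regions from all deposited peaks it was 11.8 points. H3K27ac, a mark of active enhancers and promoters, gave 62.3% and 62.2% in nEnd against 50.9%, 51.9%, 48.1% and 49.6% in the naive libraries, a difference of 12.2 points with the same p of 0.133 by exact permutation (adjusted p = 0.167). The naive H3K27ac lists were far longer, with 210904 to 401853 peaks against 20072 and 21394, and at equal numbers the difference was 19.8 points.

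**Figure D4:**
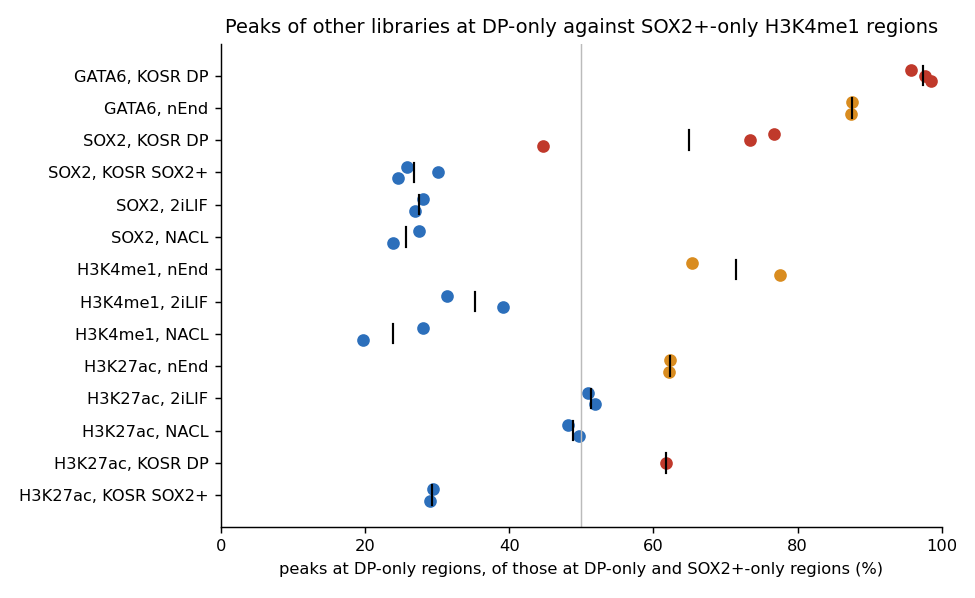
For each library of the other antibodies and cultures, the percent of its peaks at DP-only regions among those at DP-only and SOX2+-only regions; points are libraries and black ticks group means. GATA6 libraries lie at 87.4% to 98.5%, and SOX2 libraries of DP cells at 44.7% to 76.7%, above the 7 other SOX2 libraries at 23.8% to 30.1%.

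Read by region, 2619 DP-only regions (19.6%) had H3K4me1 peaks in both nEnd libraries and 8949 (67.1%) had none in any of the 4 naive libraries, against 17.5% and 37.7% of all regions. In the regions of SOX2+ A alone and SOX2+ B alone 57.2% and 54.8% had none in the naive libraries. In fully shared regions the shares were 25.4% and 15.6%. Both held for 1383 DP-only regions (10.4%, against 3.18% of all regions), 112 SOX2+-only regions (1.15%) and 127 and 133 regions of a single SOX2+ library (1.65% and 2.00%). The reverse pattern, a peak in at least 3 of 4 naive libraries and none in nEnd, was found in 2.21% of DP-only and 18.3% of SOX2+-only regions. In the regions of SOX2+ A alone and SOX2+ B alone it was found in 7.66% and 6.28%. In the DP-only regions with GATA6 peaks in all 3 DP libraries, H3K4me1 of both nEnd libraries was present in 52.6%, against 16.2% of those with none.

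For genes, the bases covered by kept peaks were summed over the gene body and 10 kb on either side for 21938 protein-coding genes. A gene was called higher in DP when DP A covered at least 2 times and at least 2000 bases more than the higher SOX2+ library, and lower in DP by the mirrored rule. By this rule 896 genes (4.08%) were higher and 679 (3.10%) lower in DP. The same rule with SOX2+ A in the place of DP A gave 343 (1.56%) higher and 167 (0.761%) lower, and with SOX2+ B 79 (0.360%) and 469 (2.14%). DP A thus had more calls in both directions than either SOX2+ library, and SOX2+ B, with most lower genes of the 2, also had the fewest covered bases. These calls have no replicate check, and of the called genes named below Hadha kept its call in 3 of 9 alternative settings, Cdh2, T and Thy1 in 4, and Amn, Stat3, Krt8, Mgat5 and Zfp423 in 5. With all deposited peaks 3487 genes were higher and 21 lower, and leaving out SOX2+ A or SOX2+ B gave 1914 or 1464 higher and 1002 or 1528 lower. Which direction held more genes depended on the scaling, with 706 higher and 911 lower when the lists were held to equal covered bases, and 1243 and 411 when peaks were ranked by total signal. The genes also changed: of the 896 and 679, 332 and 267 were called with windows of 50 kb around the start site, 440 and 202 with the strongest 50% of peaks, and 667 and 262 with total signal.

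In the PrE list 6 of 35 genes were higher in DP and 0 lower, where 4.08% and 3.10% of all genes were called. DP A lay above both SOX2+ libraries at 22 of them (62.9%, against 33.0% of all genes) and below both at 3 (24.2% of all genes), and the median difference from the SOX2+ mean was 1309.5 bases, against 0 for all genes. Gata6, which drives PrE fate and marks the sort, had 21312 covered bases in DP A, 9776 in SOX2+ A and 8350 in SOX2+ B. It was the nearest gene to 11 DP-only regions and to no SOX2+-only region. Of the 11, 2 carried H3K4me1 in both nEnd libraries and 0 had GATA6 peaks in at least 2 DP libraries. Pdgfra had 12476, 5145 and 1589 bases in the same order. SOX2+ B was low at this gene also against SOX2+ A, so the SOX2+ libraries differed from each other too. Amn, a part of the cubilin uptake receptor of PrE, had 6211 bases in DP A, all in 1 DP-only region that reaches its start site, against 998 and 1839.

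The basement membrane genes Col4a1 and Col4a2, which encode collagen IV chains and lie head to head with overlapping windows, had 33992 and 28368 bases in DP A. In SOX2+ A they had 16529 and 10865, and in SOX2+ B 9410 and 8454. They were nearest to 7 and 3 DP-only regions, of which 6 and 2 carried H3K4me1 in both nEnd libraries. Lama1, a laminin chain, had 5572 bases against 1995 and 1190. Among PrE genes short of the rule, Sparc, a matrix protein, had 24701 against 11664 and 15945, and Hnf4a, a later endoderm factor, 10139 against 4819 and 7347. Not every PrE gene lay higher in DP: Gata4, the GATA factor that follows Gata6, had no covered base in any of the 3 libraries, and Tcf7l2 had 27389 against 36303 and 32605.

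Fgfr2 is described by its regions, since its annotated span, chr7:130162451-133123350, holds other genes whose peaks count towards its covered bases. It was the nearest gene to 9 DP-only regions and 1 SOX2+-only region, and 7 of the 9 carried H3K4me1 in both nEnd libraries. Of the 9, 4 had GATA6 peaks in at least 2 DP libraries, and the strongest is the window printed above. In all, 21 of the 35 PrE genes were nearest to 69 DP-only regions and 9 to 19 SOX2+-only regions, where 33.2% of all genes were nearest to a DP-only and 27.2% to a SOX2+-only region. Of the 69, 38 carried H3K4me1 in both nEnd libraries, 55 carried none in the naive libraries and 11 had GATA6 peaks in at least 2 DP libraries, while the 19 gave 5, 7 and 0. Over all DP-only regions the shares were 19.6%, 67.1% and 6.32%, and over all SOX2+-only regions 7.46%, 32.4% and 0.154%. The nEnd share was thus higher near PrE genes in both classes.

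The pluripotency list had no call in either direction among 20 genes, with 10 above both SOX2+ libraries (33.0% of all genes) and 10 below both (24.2% of all genes). Sox2, present in both populations by the sort, had 15009 bases in DP A, 18912 in SOX2+ A and 18080 in SOX2+ B. DP A was the lowest of the 3 without passing the rule, and Sox2 was nearest to 10 SOX2+-only and 3 DP-only regions. The largest differences in this list were for Tfcp2l1, a factor of naive cells, with 44483 against 30809 and 31529, and Prdm14, with 23069 against 15502 and 19797. Nanog had 11725 against 13862 and 14741, and Pou5f1 19312 against 18090 and 17105. Pluripotency genes were nearest to 49 DP-only and 41 SOX2+-only regions.

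Formative epiblast genes, which rise as naive cells move towards differentiation, had 3 of 10 members lower in DP and 1 higher, where 3.10% and 4.08% of all genes were. Lef1, a transcription factor of the Wnt pathway, had 10703 bases in DP A against 24355 and 22038 and was nearest to 6 SOX2+-only regions. Zic2 had 1111 against 4316 and 3794, and Pou3f1 678 against 2861 and 3962; both encode transcription factors. Cdh2, which encodes N-cadherin, was the member that was higher, with 5059 against 2155 and 821. In the mesendoderm list 1 of 8 was lower and 0 higher, with 2 above both SOX2+ libraries and 3 below both. The member called was T (brachyury), with 1816 against 4848 and 4590.

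**Figure D5:**
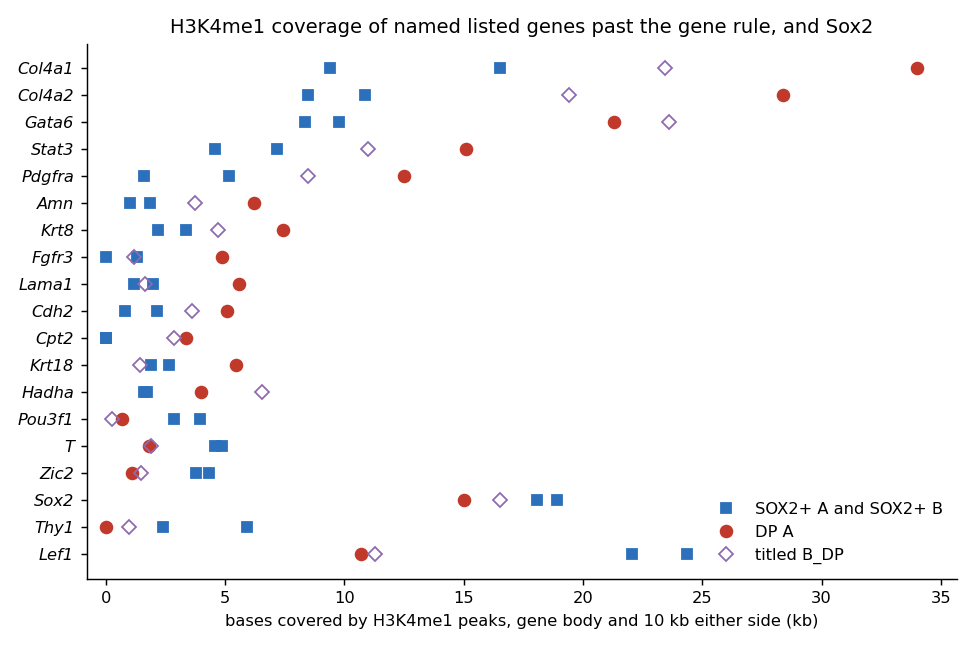
Kilobases covered by kept H3K4me1 peaks in the gene body and 10 kb on either side, for the listed genes past the gene rule that are named in the text and for Sox2, which is not past it; each symbol is 1 library. Col4a1, Col4a2 and Gata6 have the largest gains in DP A and Lef1 the largest loss, and the library titled B_DP lies between DP A and the SOX2+ libraries for most genes.

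Signalling and metabolic lists were short, and their counts stand against 4.08% of all genes called higher. In the LIF list 1 of 5 was higher, Stat3, the transcription factor that LIF activates, with 15091 bases against 4577 and 7185, and Lifr, the receptor, had 39676 against 54296 and 52272. In the FGF and ERK list 1 of 14 was higher, Fgfr3, with 4871 against 0 and 1295. Fgfr3 kept this call in 6 of 9 alternative settings and showed no difference with the strongest 50% of peaks. In the list of lipid oxidation and respiration 3 of 12 were higher, among them a pair of enzymes of fatty acid oxidation in mitochondria. Cpt2, of the carnitine shuttle, had 3359 against 0 and 0, and Hadha 3973 against 1719 and 1580. For Cpt2 the difference vanished (-9.5 bases) in a window of 50 kb around the start site. The Nodal, BMP and Wnt list had no call among 17, with its largest differences at Axin2 (12532 against 6554 and 2679) and Id1 (15054 against 11797 and 9767). The p53 list had none among 10, although 8 lay above both SOX2+ libraries (33.0% of all genes) and 0 below both (24.2% of all genes), with Pmaip1 at 11721 against 6739 and 6585 and Trp53 at 16660 against 11065 and 13796.

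Markers of other cell types were read in the same way. In the trophoblast list 9 of 10 genes lay above both SOX2+ libraries, where 33.0% of all genes did. In this list 2 passed the rule as higher, where 4.08% of all genes did. These were the neighbouring keratins Krt8 (7443 against 2180 and 3344) and Krt18 (5452 against 2662 and 1882), which simple epithelia share. Cdx2, a defining trophoblast factor, had 10055 against 7877 and 6201 and did not pass. In the fibroblast list 1 of 12 was lower, where 3.10% of all genes were. This was Thy1, with 0 against 5935 and 2379, whose direction turned with all deposited peaks (842 bases more in DP A than the SOX2+ mean). The neural list had no call among 7 (Pax6, 20625 against 15852 and 17080; Neurog2, 9138 against 7676 and 6304), and the 2-cell-like list none among 6 (Tcstv3, 0 against 1225 and 0; Zfp352, 1156 against 799 and 461). In sorted cells, a change in a few cells and a change in all cells cannot be told apart, and the part of other cell types in the result was not tested.

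Over all genes, the largest gains of DP A above the higher SOX2+ library were at Mgat5, Dym, Ak4, Runx1, Creb3l2, Nedd4l, Atxn7l1, Arid5b, Meis1 and Foxo3, of which 6 passed the rule. Ak4, an adenylate kinase of mitochondria, had 37660 bases in DP A against 0 and 893, with 8 DP-only regions nearest to it. Runx1, a transcription factor of blood formation, had 35491 against 3855 and 3792, with 10 DP-only regions, and a difference of 0 in a window of 50 kb around the start site. Mgat5, a glycosyltransferase, had 122323 against 60690 and 60201. Creb3l2 (38280 against 11453 and 12164), Meis1, a homeobox factor (36452 against 13209 and 13316), and Atxn7l1 (42870 against 18198 and 15589) followed, each nearest to 9 to 11 DP-only regions. Dym, Nedd4l, Arid5b and Foxo3 had gains from a high level in SOX2+ cells and did not reach 2 times.

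The largest losses were at Tenm4, Zfp423, Cdyl, Nfib, Gse1, Pitpnc1, Auts2, Btbd11, Bnc2 and Utrn. Only Zfp423 passed the rule among these 10, with 20780 bases in DP A against 53010 and 41990 and 8 SOX2+-only regions nearest to it. Tenm4, a neuronal adhesion gene, had 50303 against 81566 and 73114, and Nfib, a transcription factor, 34421 against 56046 and 53954 with 11 SOX2+-only regions. The other 9 kept 22900 to 91501 covered bases in DP A and did not reach the fold of the rule. With all deposited peaks Tenm4, Gse1 and Pitpnc1 were higher in DP A than the SOX2+ mean. In windows of 50 kb around the start site Btbd11 and Utrn turned direction as well, and Cdyl showed no difference.

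The library titled B_DP was then placed between the populations. At equal peak numbers it shared 55.0% of the union of bases with DP A, 53.3% with SOX2+ B and 51.0% with SOX2+ A, so DP A was nearest, by 1.69 points over SOX2+ B, which carries its letter. Among the strongest 50% of the peaks DP A and SOX2+ B were level, with a difference of -0.0567 points. Its peaks lay in 35.3% of DP-only regions, against 23.2% and 27.8% of the regions of SOX2+ A and of SOX2+ B alone, and in 51.8% of SOX2+-only regions, against 54.6% and 62.1% of regions that DP A shared with 1 SOX2+ library. In DP-only regions it was present in 56.1% of the strongest quintile and 17.6% of the weakest, and in 49.4% of those with GATA6 in all 3 DP libraries.

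By genes, it lay above both SOX2+ libraries at 669 of the 896 genes higher in DP A (74.7%, against 25.8% of all genes) and below both at 554 of the 679 lower genes (81.6%, against 27.3%). At listed genes it lay above both in 11 of the 14 called higher and below both in 5 of the 5 called lower. Gata6 had 23582 bases in it, above DP A, and Lef1 11275, near DP A, while Lama1 (1627), Krt18 (1432) and Fgfr3 (1165) lay within or below the SOX2+ range. These comparisons reuse the SOX2+ libraries that the gene calls used and are given as a description. With all deposited peaks the order by shared bases was again DP A (52.7%), SOX2+ B (51.1%) and SOX2+ A (49.0%).

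As a second DP library, in a marked alternative that asks for a peak in both, it left 4203 DP-only regions, with AGATAA in 32.0% and GATA6 peaks of at least 2 DP libraries in 9.11%, and 4702 SOX2+-only regions, with 13.1% and 0.170%. The gene rule then gave 222 genes higher and 178 lower. Of the genes named above, Gata6, Ak4, Runx1, Cpt2, Hadha, Pou3f1, Zic2 and T still passed it, while Pdgfra, Amn, Lama1, Col4a1, Col4a2, Cdh2, Stat3, Fgfr3, Krt8, Krt18, Mgat5, Creb3l2, Meis1, Atxn7l1, Lef1, Thy1 and Zfp423 did not, all of these with the same direction of the mean difference.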

How the data were processed

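H3K4me1 CUT&RUN peak lists of KOSR DP and SOX2+ cells were analysed, with the lists of the other antibodies and cultures. According to the submitters' processing notes, reads were handled with cutadapt 1.18, Bowtie2 2.3.4.1, SAMtools 1.9, Picard 2.9.1, bedtools 2.27.1 and deepTools 3.2.0, on GRCm38 (mm10), and peaks were called per library with SEACR. The deposited lists give for each peak its total and its highest signal, as whole-number coverage with no scaling between libraries seen in the values. The files name the relaxed SEACR mode for histone marks where the methods name the stringent one. Read depth is unknown, so no counting error can be given for a region, and signal served for ranking inside a list alone. The 18 IgG samples were not analysed here.

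Peaks were ranked by highest signal, held to 58085 per library, and merged where they overlapped by 1 base. Genes and start sites are protein-coding genes of GENCODE M21 for GRCm38; coordinates are 1-based. Nearest means the closest start site. Strings were searched on both strands in 300 bases around the maximum of DP A where it had a peak, otherwise of SOX2+ A, otherwise of SOX2+ B. No test was made between the DP and SOX2+ lists, since DP has 1 library. The 5 exact permutation tests used libraries that did not make the regions. The interval and merging code was tested on simulated data. Python 3.11.15 with numpy 2.4.6, pandas 2.3.3 and scipy 1.17.1 was used.

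Genes named are the members of each list past the gene rule, otherwise the 2 with the largest difference, the 10 largest gains and losses over all genes, the genes of the 5 strongest regions of each class, Gata6 and Sox2; Sparc, Hnf4a, Gata4, Tcf7l2, Fgfr2, Nanog, Pou5f1, Lifr and Cdx2 were named after their values were seen. The members and gene lists were chosen with earlier results of these data known. A result for a listed gene past the rule is not reported here. Listed symbols Cripto and Dux were not found under these names. The SOX2 libraries of DP and SOX2+ cells share the letters A, A1 and B, which do not come with a statement of shared cultures.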

Additional observations from a re-analysis of the deposited data

Results flagged for a closer look

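No group of libraries was large enough for a check of outlying samples. 4 values came from data outside the comparison of the 3 H3K4me1 lists. The H3K27ac library of DP cells had 61.7% of its peaks at DP-only and SOX2+-only regions in the DP-only class, against 29.4% and 29.01% in the SOX2+ H3K27ac libraries; held to 13514 peaks each, the values were 60.1%, 29.4% and 29.1%. The H3K27ac library titled B_DP, whose labels conflict in the same way, lay at 42.3%, between them, and at 38.7% with 13514 peaks. In the H3K4me1 library titled B_DP, Gata4 had 2433 covered bases and Mixl1 493, where DP A, SOX2+ A and SOX2+ B had 0. These are single libraries, and their differences were not tested.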

How the results depend on the processing

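With all deposited peaks, DP-only, SOX2+-only and shared regions numbered 53810, 2147 and 66847, and genes higher and lower in DP 3487 and 21, as the DP A list is longer; with the strongest 50% the regions numbered 7929, 5443 and 19456. With the library titled B_DP as second DP library they numbered 4203, 4702 and 33419, and genes 222 and 178, since 2 libraries must agree. Leaving out 1 SOX2+ library gave 17678 to 18289 DP-only and 17361 to 18044 SOX2+-only regions, 36955 to 37565 shared ones, 1464 to 1914 higher and 1002 to 1528 lower genes. Ranking by total signal gave 411 lower genes, and a rule of at least 3 times 400 higher and 437 lower. With the strongest 50%, the overlap of the library titled B_DP with DP A less that with SOX2+ B turned to -0.0567 points. Direction reversed for Gse1 (13391.5 bases), Pitpnc1 (7590), Tenm4 (4956.5) and Thy1 (842) with all peaks, and for Btbd11 (877.5), Cpt2 (-9.5), Thy1 (1354) and Utrn (1264.5) in windows of 50 kb around the start site; the cause was not tested. Of 40 named genes, 30 kept their direction under all 9 alternatives; the difference was 0 for Cdyl and Runx1 with the 50 kb windows and for Fgfr3 and Thy1 with the strongest 50%. Of their 360 values, 68 no longer passed the rule without a reversal.

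The replicate block on the letters A, A1 and B left the SOX2 difference between DP and SOX2+ cells at 38.1 points (exact sign-flip p = 0.25, the smallest that 3 pairs allow). All 5 library tests kept their direction in every alternative. Leaving out 1 library gave differences of 32.2 to 48.2 points for SOX2 against SOX2+, 32.3 to 48.4 against all pluripotent libraries, where p rose to 0.0556 without any 1 DP library, 9.21 to 10.6 for GATA6, 35.8 to 47.9 for H3K4me1 and 11.5 to 12.7 for H3K27ac. With regions from all deposited peaks, the GATA6 difference was 0.429 points and the H3K4me1 difference 11.8. In alternatives chosen after seeing the data, the share with GATA6 peaks ran from 2.04% to 9.31% in DP-only and 0.140% to 0.404% in SOX2+-only regions, and that with AGATAA from 21.4% to 32.0% and 13.1% to 13.5%.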

Other observations

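GATA6 peaks in at least 2 DP libraries lay in 6.32% of all DP-only regions. Outside the PrE list, they lay in 6 of the 8 DP-only regions nearest to genes of the list named mesendoderm. Dkk1, a Wnt inhibitor, gave 3 of these and Cer1, Gsc and Lhx1 gave 1 each, while T was nearest to no DP-only region. The counts were 3 of 21 for the FGF and ERK list, 2 of 49 for pluripotency, 1 of 17 for trophoblast and 1 of 7 for formative epiblast. The other 7 lists had 0.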
